A study of Homo sapiens with 6 samples.

Results

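Transcripts of the AP-1 family were examined in the human melanoma cell line A375, grown in DMEM with fetal bovine serum, after exposure to 0.01% olive oil (OLO) or 0.01% ozonated olive oil (OZO) for 6 h. The labels give both groups as A375 with the genotype WT and tell them apart only by the oil, and 3 libraries were made from each group, 6 in all. The 10 genes, FOS, FOSB, FOSL1, FOSL2, JUN, JUNB, JUND, ATF3, BATF3 and JDP2, were chosen by gene symbol from the 28395 genes of the authors' table, with earlier results of these data on the difference between the oils known, and all 10 were found. That table holds the authors' own comparison of OZO with OLO, which was not used here, and 1 further measurement per gene, the authors' mean level over all 6 libraries. Levels in each single library were not analysed. The results below therefore describe how much of each transcript the cells held on average over both oils. They give no difference between OZO and OLO, and no spread between libraries stands behind any value.

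AP-1 is not a single protein but a pair of basic leucine zipper (bZIP) proteins that bind DNA together. FOS proteins pair only with a partner, mostly a JUN protein, whereas JUN proteins also pair with themselves or with ATF proteins. Several of the genes are immediate early genes, whose transcripts appear within minutes of a growth signal or stress and are degraded quickly. In melanoma cells the RAF-MEK-ERK cascade, which A375 cells keep active through a mutant BRAF, is a well known input to FOS, FOSL1 and JUN. AP-1 dimers recognise the TRE, TGACTCA, and dimers that hold an ATF protein favour the CRE, TGACGTCA, and sites of this kind lie in the promoters of some of the family's own genes.

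Promoter stretches of 5 members are shown because each holds such a site or a part of it. Those of FOSL2 and JDP2 are left out, as they overlap an exon or lie behind another start of the gene, and of JUND only the full CRE is shown. They come from RefSeq (GRCh38.p14), run 5′ to 3′ on the strand of the gene, lie before the annotated transcription start, and carry 21 bases on each side of the match, which is in capitals. Positions are counted from the start, so that the base before it is −1.

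JUN (chr1:58784086-58784135, minus strand, match at −67 to −60): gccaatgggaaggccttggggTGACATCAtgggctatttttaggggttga

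ATF3 (chr1:212565263-212565312, plus strand, match at −123 to −116): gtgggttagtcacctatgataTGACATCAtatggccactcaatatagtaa

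JUND (chr19:18281794-18281843, minus strand, match at −200 to −193): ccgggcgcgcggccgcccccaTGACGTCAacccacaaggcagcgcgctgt

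FOS (chr14:75278743-75278790, plus strand, match at −64 to −59): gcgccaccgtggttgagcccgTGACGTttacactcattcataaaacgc

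FOSB (chr19:45467915-45467962, plus strand, match at −60 to −55): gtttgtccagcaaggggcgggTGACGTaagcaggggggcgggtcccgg

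JUN and ATF3 carried the same 8 letters, TGACATCA, a CRE-like variant and the best known AP-1 and ATF binding element of the JUN promoter. ATF3 has 2 annotated starts with a promoter window. The site lies before the first, and the window of the second held no CRE-like match. Which start these cells used was not tested. Of the 8 members with a promoter window, only JUND held the full CRE. FOS and FOSB each carried the first 6 letters of the CRE, TGACGT, at nearly the same distance from the start, and in FOS this is the known cAMP response element.

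Over all members, RefSeq gave 11 promoter windows for 8 genes, each running from 250 bases before the start to 50 after it, with 2 windows for ATF3 and 3 for JDP2. FOSL1 and BATF3 had no entry. Both strands were searched. The TGACGT core was in 5 of the 11 windows, those of FOS, FOSB, FOSL2, JUND and JDP2, against 7.98% of all 35116 windows. The variant TGACATCA was in 2 windows against 2.61% of all, the full CRE in 1 against 1.85%, and the TRE in 1, that of FOSL2, against 4.95%. The CRE contains the core on both strands, so the JUND window counts under both. JUND held a further core at −87 to −82. In FOSL2 the core lay at −66 to −61 and the TRE at 4 to 10 bases after the start. The stretch around the core overlaps an exon of the gene in GENCODE.

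The TATA box, TATAAA, was found in the windows of FOS, FOSB and JUNB within 33 bases of the start, and far upstream in the second window of ATF3, so that 4 of 11 windows held it against 11.5% of all. The CCAAT box, CCAAT, was in 4 windows (34.6% of all) and the GC box, GGGCGG, in 9 (15786 of all 35116). The CArG box, the site of serum response factor, was in none of the 11 windows and in 1.29% of all, which says only that it is not in these 300 bases. GC content ranged from 46.3% in the second ATF3 window to 86.3% in the third JDP2 window, with a median of 58.7% over all windows. The map of motif matches shows the CRE-like sites of FOS, FOSB, FOSL2 and JUN within a narrow stretch about 60 bases before the start. A match is a description of the letters and not evidence of binding in these cells.

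**Figure D1:**
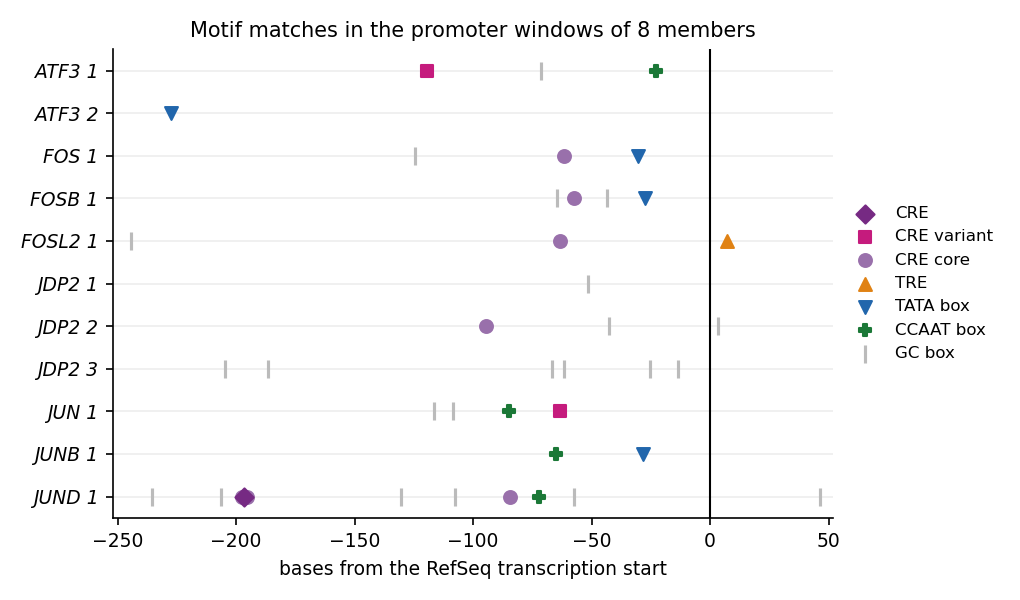
Positions of motif matches in 11 RefSeq promoter windows of 8 members (rows, gene and window number) against bases from the transcription start (x axis, black line at the start). The core matches of FOS, FOSB and FOSL2 and the variant match of JUN lie between −67 and −55, whereas that of ATF3 lies at −123 to −116.

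The level of each gene is the authors' mean of log2 CPM (counts scaled to a common library size) over the 6 libraries. The lowest value in the table belongs to 7012 genes without a read, and because 0.5 was added to every count it sets the geometric mean library size, as normalized by the authors, at 18409902 counts. From this each level was turned into a mean number of reads per library. These are geometric means over OLO and OZO together, and a gene that differs between the oils lies below its arithmetic mean. Intervals are 95% Wilson intervals of this mean times the 6 libraries, used in place of the unknown summed reads, and cover counting error only. To set genes against each other the level was divided by the length of the longest transcript in GENCODE 44, giving log2 CPM per kilobase. Percentiles, counts of higher genes, and the medians of other genes and lists use this length only. Other lengths were tried for the members alone, so how these placements depend on length was not tested.

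Ordered by that level per kilobase, the members ran from FOSL1 at the top through JUN, ATF3, JUNB, FOS, JUND, FOSB, FOSL2 and JDP2 to BATF3. The distance from FOSL1 to BATF3 was 8.41 on the log2 scale, or 341-fold. The median of the 10 genes was 4.15 log2 CPM per kilobase, against 2.68 for the 13313 genes that averaged 10 or more reads and had a known length, termed expressed genes. FOSL1, JUN, ATF3, JUNB, FOS and JUND lay above that median of expressed genes, and FOSB, FOSL2, JDP2 and BATF3 lay below it. The largest steps between neighbours were those from FOSL2 to JDP2, 2.95 on the log2 scale, and from JUND to FOSB, 1.71. Because the spread between libraries is not known here, no neighbouring members can be said to differ beyond it.

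**Figure D2:**
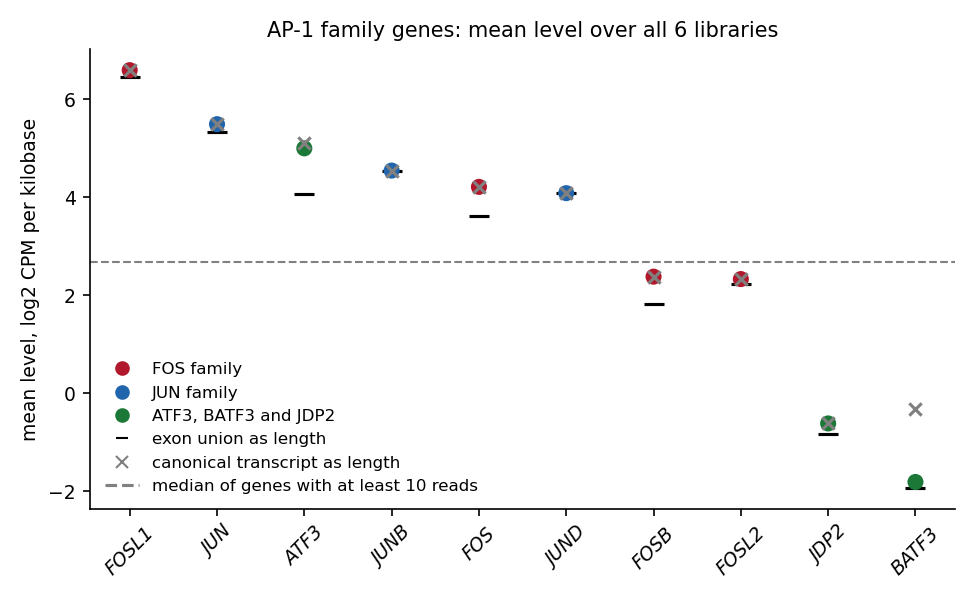
Mean level over all 6 libraries of the 10 genes in log2 CPM per kilobase (y axis), ordered by the longest transcript as length (coloured points, by family), with the exon union (black bars) and the canonical transcript (grey crosses) as other lengths. FOSL1 is highest at 6.60 and BATF3 lowest at −1.81, and the dashed line marks the median of expressed genes, 2.68.

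FOSL1, FOSB, FOSL2 and FOS make up the FOS family, the partners that need another protein to bind DNA. FOSL1 (GRCh38.p14, chromosome 11, 65892049 to 65900545, minus strand, 4 exons in the canonical transcript of 1702 bases) encodes FRA1, a FOS protein without the transactivation domain of FOS. It had a mean level of 7.37 log2 CPM, or 3037 reads per library (interval 2993 to 3081), the most of the 10 genes. Per kilobase its level was 6.60 log2 CPM, higher than that of 96.3% of expressed genes. This was 5.22-fold the level of FOS, 18.6-fold that of FOSB and 19.3-fold that of FOSL2, so that 77.1% of the FOS family's summed CPM per kilobase came from FOSL1. With the shortest coding transcript as length these folds were 1.80, 8.33 and 7.43, and the share was 55.3%.

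FOS (chromosome 14, 75278828 to 75282230, plus strand, 4 exons), the founding immediate early gene of the family, had a mean level of 5.29 log2 CPM, or 719 reads per library (698 to 740). Per kilobase it reached 4.21 log2 CPM, above 75.5% of expressed genes. FOS lay next to JUND in the order, and the difference of 0.13 on the log2 scale became −0.47 with the exon union as length. FOSB (chromosome 19, 45467996 to 45475179, plus strand), which also gives rise to the truncated protein ΔFOSB, had 4.30 log2 CPM and 361 reads (347 to 377).

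FOSL2 (chromosome 2, 28392858 to 28417317, plus strand), encoding FRA2, had 622 reads per library (602 to 642) and a mean level of 5.08 log2 CPM. Its reads outnumbered those of FOSB, but its transcript of 6713 bases is the longest of the family, and per kilobase FOSB and FOSL2 were close at 2.38 and 2.33 log2 CPM. Their order turned with the exon union and with the shortest coding transcript as length.

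The JUN family supplies the partners that FOS proteins require. JUN (chromosome 1, 58780791 to 58784047, minus strand, 1 exon) had a mean level of 7.20 log2 CPM, or 2704 reads per library (2662 to 2746), and 5.50 log2 CPM per kilobase, above 90.4% of expressed genes. JUNB (chromosome 19, 12791486 to 12793315, plus strand, 1 exon), which can oppose JUN in growth control, had 5.42 log2 CPM and 787 reads (765 to 810). JUND (chromosome 19, 18279694 to 18281622, minus strand, 1 exon), usually the most steadily expressed JUN gene, had 5.03 log2 CPM and 603 reads (583 to 623).

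Per kilobase JUN stood 1.93-fold above JUNB and 2.66-fold above JUND, and it made up 52.8% of the family's summed CPM per kilobase. With the shortest coding transcript the order of JUN and JUND turned, with a ratio of 0.688, and the share of JUN was 33.7%. All 3 JUN genes lack introns in the canonical transcript, whereas the FOS genes, ATF3 and JDP2 have 4 exons and BATF3 has 3. For comparison, FOSL1 was 2.15-fold above JUN per kilobase, or 6.26-fold with the shortest coding transcript. The FOS family held 51.5% of the summed CPM per kilobase of the 10 genes and FOSL1 alone 39.7%. With the exon union the share of FOSL1 was 42.3%, and with the shortest coding transcript 35.7%. The share of the whole family is given for the longest transcript only and depends on that length.

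ATF3, BATF3 and JDP2 are small bZIP proteins that pair with JUN proteins and often repress. ATF3 (chromosome 1, 212565407 to 212620777, plus strand), a stress-induced member of the ATF/CREB family, had a mean level of 6.07 log2 CPM, or 1240 reads per library (1212 to 1268). Its level per kilobase was 5.00 log2 CPM, above 85.6% of expressed genes, and it made up 97.2% of the summed CPM per kilobase of the 3 genes. This place was sensitive to length, since GENCODE lists 10 transcripts of ATF3. With their exon union the level of ATF3 fell to 4.07, below JUNB. It then lay inside the counting interval of JUND, 4.04 to 4.13.

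JDP2 (chromosome 14, 75426943 to 75474107, plus strand), a JUN dimerisation partner, had a mean level of 1.82 log2 CPM, or 64.3 reads per library (58.2 to 71.0). BATF3 (chromosome 1, 212686417 to 212699840, minus strand), best known from dendritic cells and lymphoid cells, had −0.58 log2 CPM, or 11.8 reads (9.39 to 14.9). These were the weakest members, with levels per kilobase above only 13.8% and 5.53% of expressed genes. Which of them was lowest depended on the transcript, because the canonical BATF3 transcript has 836 bases and the longest 2357. With canonical transcripts BATF3 had −0.32 and JDP2 −0.61 log2 CPM per kilobase.

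Summed over the 10 genes, these geometric means came to 10148 reads per library, or 0.0551% of the implied library size. The histogram of expressed genes places FOSL1 and JUN in its upper tail and FOSB and FOSL2 close to its centre. Among 12432 protein-coding genes with at least 10 reads, 473 had a higher level per kilobase than FOSL1, 1241 than JUN, 1857 than ATF3 and 3169 than FOS.

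**Figure D3:**
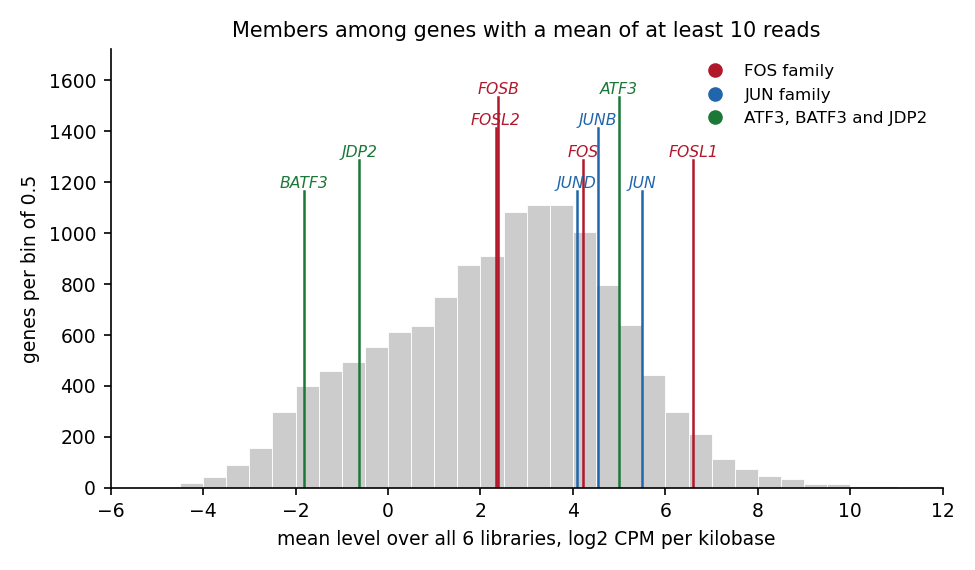
Number of genes per bin of 0.5 (y axis) by mean level over all 6 libraries in log2 CPM per kilobase (x axis), for expressed genes (10 or more reads on average). Coloured lines mark the members, from BATF3 at −1.81 to FOSL1 at 6.60.

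Reads of some members could also belong to another gene. FOSB lies within ERCC1 and JUNB within HOOK2, in each case over its whole length and on the opposite strand, through long annotated transcripts of those repair and transport genes. ERCC1 had a mean of 1027 reads per library and HOOK2 76.4. The library kit keeps the strand, but the strand setting of the counting is not given in the sources used here, so the share of such reads in FOSB and JUNB was not tested. FOSL2-AS1 and JDP2-AS1 overlap FOSL2 and JDP2 on the opposite strand and had few reads, 0.40 per library for FOSL2-AS1. A long non-coding RNA without a symbol overlaps FOSL2 on the same strand over 296 bases, 1.19% of the gene, where strand cannot separate the reads, and it had no level in the table. The longest exact match of a canonical member transcript to a transcript of another gene was 71 bases, between FOSL1 and the pseudogene FOSL1P1, followed by 68 bases between JDP2 and MZT2A. The matches found for the other members were at most 28 bases long. The search took words of 25 bases at intervals along other transcripts, so further short matches could be missed. All matches found are shorter than the reads of 150 bases.

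The transcripts were next compared in their 3′ untranslated regions, since AU-rich elements there are known to shorten the life of immediate early mRNAs. The nonamer TTATTTATT was present in the canonical 3′ region of FOS and of FOSL2, 2 of 10 members, and in 10.2% of 12397 expressed protein-coding genes. FOS has a 3′ region of 806 bases, and among expressed genes with 400 to 1000 bases the share was 4.35%. FOSL2 has 4869 bases, and from 2000 to 6000 bases the share was 15.9%. The pentamer ATTTA occurred 9 times in FOSL2, 5 times in FOS, 3 times each in JUN, ATF3, FOSB and JDP2, 2 times in JUNB and once in FOSL1, JUND and BATF3. Thus 6 of 10 members had 3 or more, against 49.7% of expressed genes, which is near the background. The 2 genes with the highest levels per kilobase, FOSL1 and JUN, had 1 and 3 pentamers and no nonamer.

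Some members are neighbours in the genome. On chromosome 14, FOS and JDP2 lie on the same strand 145 kb apart with no protein-coding gene between them, and BATF, another bZIP gene, follows 48.3 kb beyond JDP2. Levels along this stretch differed widely, with 4.21 log2 CPM per kilobase for FOS, −0.62 for JDP2 and no read in any library for BATF. On chromosome 1, ATF3 and BATF3 lie 65.6 kb apart on opposite strands with GARIN4 between them. ATF3 was 113-fold above BATF3 per kilobase, or 64.6-fold with the exon union and 174-fold with the shortest coding transcript, and GARIN4 had 0.22 reads. JUNB, JUND and FOSB share chromosome 19 but are not neighbours, as JUNB and JUND are 5486 kb apart with 152 protein-coding genes between them.

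**Figure D4:**
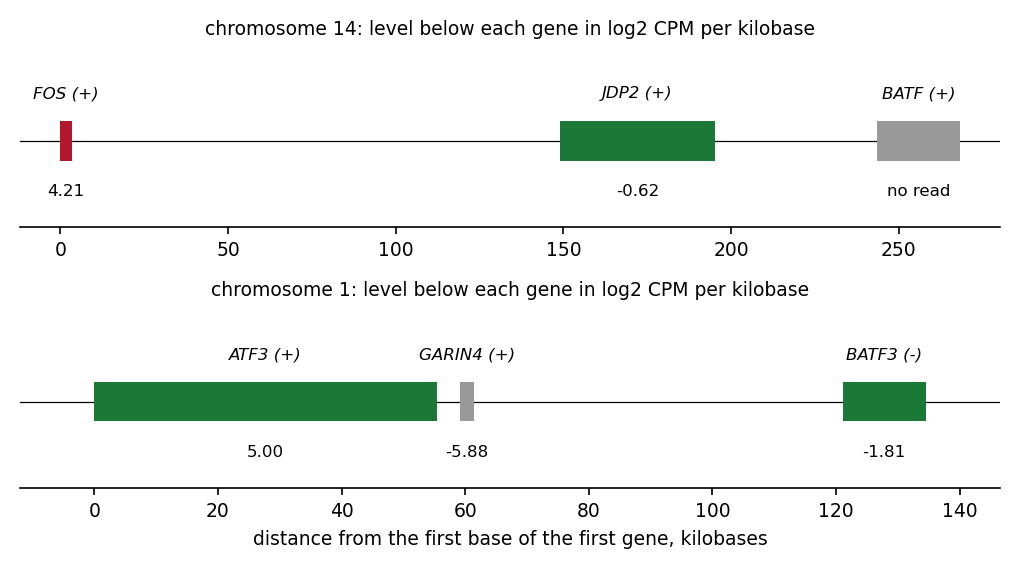
Protein-coding genes between FOS and BATF on chromosome 14 (top) and between ATF3 and BATF3 on chromosome 1 (bottom), drawn to scale by distance in kilobases (x axis), with the strand above and the mean level in log2 CPM per kilobase below each gene. FOS at 4.21 and ATF3 at 5.00 are the high genes of their stretches, and BATF has no read.

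The members work within a wider circuit, described by 4 lists of 76 genes. All 76 were in the table, and 72 averaged 10 or more reads per library, as did 13773 of all 28395 genes. Of 24 other bZIP genes that can pair with or compete with AP-1 proteins, 23 were detected in this sense, and the median over all 24 was 3.74 log2 CPM per kilobase against 4.15 for the members. The highest were ATF4, the effector of the integrated stress response, at 7.77, NFE2L1, a regulator of proteasome genes, at 5.63 and NFE2L2, which encodes NRF2, at 5.10. ATF4 was the only one above FOSL1, and BATF the only one without a read.

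Of 20 upstream kinases and factors, 19 were detected, and the median over all 20 was 3.84 log2 CPM per kilobase. RPS6KA3, the ERK-activated kinase RSK2, had 5.02, ELK3, a ternary complex factor, 5.02, and MAP2K1, the kinase MEK1, 4.78. Without division by length the highest were ELK4 at 8.04 and RPS6KA3 at 8.02 log2 CPM. Per kilobase none of the 20 reached FOSL1. Of 12 regulators of AP-1 proteins, 11 were detected, and the median over all 12 was 4.51, with the highest levels in NACA at 6.76 and APEX1, the redox factor that keeps the DNA-binding cysteines of AP-1 reduced, at 6.02. Without division by length CSNK2A1, a subunit of casein kinase 2, at 8.36 and GSK3B, a kinase that phosphorylates JUN, at 7.60 log2 CPM followed NACA.

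Of 20 known AP-1 target genes, 19 were detected, and the median over all 20 was 3.61 log2 CPM per kilobase. HMGA1, an architectural chromatin protein, had 7.35, CD44, the hyaluronan receptor, 7.04 and KRT18, a keratin, 6.30. HMGA1 and CD44 were the target genes above FOSL1, and without division by length EZR, encoding ezrin, came after them at 7.55 log2 CPM. Target levels were spread widely, with TIMP1 at 5.91, PLAUR at 5.38, CCND1 at 5.19 and HBEGF at 4.43 log2 CPM per kilobase. Among the lower targets were the collagenase gene MMP1 at 2.14 and MMP3 at −0.25. IL6 had 2.87 reads per library, under the minimum of 10 reads. The plot of the lists shows that the members cover much of the range of their circuit, with 8 other bZIP genes, 8 upstream genes, 8 targets and 7 regulators above the members' median. The lists were written from general knowledge, and no test was run on them.

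**Figure D5:**
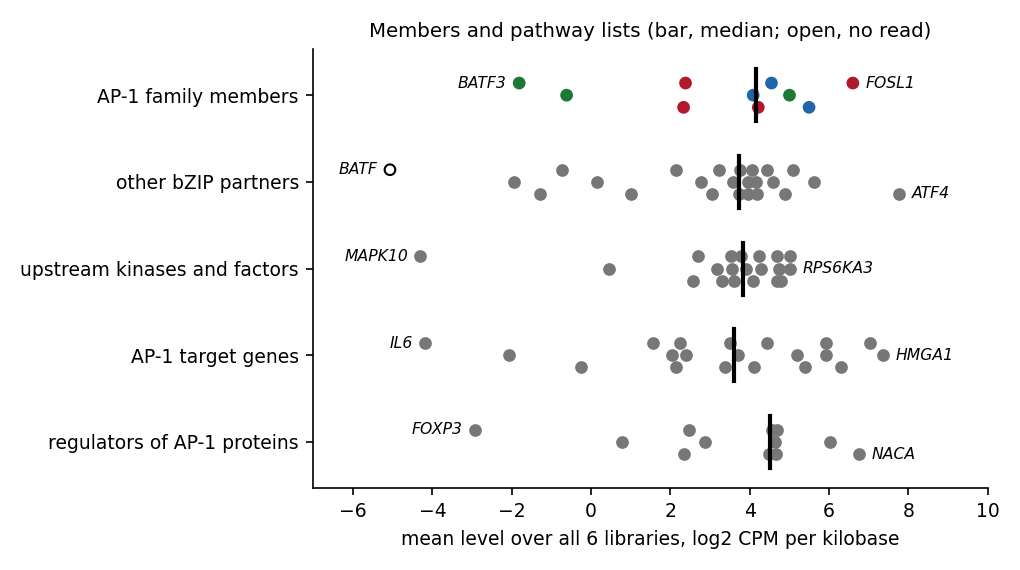
Mean level over all 6 libraries in log2 CPM per kilobase (x axis) of the 10 members and of the genes of 4 lists (rows), each point a gene and each bar the median of its row, with an open point for a gene without a read. The members' median is 4.15, and the medians of the lists run from 3.61 to 4.51.

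The identity of the cells was checked with markers. SOX10 and MITF, transcription factors of the melanocyte lineage, had 919 and 499 reads per library and the receptor kinase AXL 4915, whereas the pigment genes were low, with 36.6 reads for MLANA, 5.75 for PMEL, 4.74 for DCT and none for TYR. Of the 9 melanocyte and melanoma markers 6 reached 10 reads, as did 2 of 4 keratinocyte, 2 of 4 fibroblast, 1 of 3 immune and 1 of 2 endothelial markers. Among the markers of other cell types, KRT10 had 469 reads, PDGFRB 102, KRT14 77.5, COL1A1 22.3, PECAM1 19.5 and CD14 14.7. The rest lay under 10 reads, with 1.56 for KRT5, 1.07 for PTPRC and none for KRT1. The labels give all 6 libraries as the A375 cell line and name no other cell type. From which cells the marker reads came was not tested. In bulk RNA, fewer cells that hold a transcript and less of it per cell cannot be told apart.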

How the data were processed

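RNA of 6 libraries, 3 per oil, was sequenced in paired-end mode (reads of 150 bases) from directional libraries. According to the study's methods and the submitters' processing notes, the authors aligned reads to hg38 with HISAT2 2.1.0, counted them with featureCounts 2.1.1 and used limma-voom 3.58.1. Normalization factors, filters and the strand setting are not given in the sources used here. The deposited log2 values used here are the authors' mean log2 CPM per gene over all libraries, to which voom adds 0.5 per count. The other measurement columns hold the authors' fold changes, moderated statistics, p-values and adjusted p-values of OZO against OLO. They were not used. A test of the groups was planned only for levels in each single library. The measurement columns hold none, so the test was not run, and nothing was compared between the groups.

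Library size and reads were recovered from the gene without reads. For 6402 low genes with a read the level above the minimum, times 6 libraries, had to be the logarithm of an odd whole number, and 100% were within 0.01 of one. The recovery was tested on simulated data. Per library the depth is unknown. Lengths come from GENCODE 44, matched by Ensembl identifier for 25497 of 28395 genes, and coordinates and promoters from RefSeq GRCh38.p14, of which hg38 is the earlier release, with the same primary coordinates. All 10 members are named, and of each list the 3 highest genes, both per kilobase and without division by length because the rule named no scale, and every gene without a read, except that some of these are not reported here. Others named (TIMP1, PLAUR, CCND1, HBEGF, MMP1, MMP3, IL6, GARIN4, overlapping genes and further markers) were chosen after their values were seen. Members, lists, motifs and 3′ elements were chosen with earlier results of these data or the sequences known. Scripts used Python 3.11.15, numpy 2.4.6, pandas 2.3.3 and matplotlib 3.10.9. Intervals and floors cover counting error only.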

Additional observations from a re-analysis of the deposited data

How the results depend on the processing

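No paired analysis was possible because the values used are means over all 6 libraries, and each single library was not analysed. Therefore leaving out each replicate, a replicate block and a fit without a filter on low values were not run, and how far 1 library decides a level is not known.

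The median level of the members, 4.15 log2 CPM per kilobase, became 3.85 with the exon union as length and 5.37 with the shortest coding transcript, which in FOS has only 249 bases. With the canonical transcript, an alternative added after the lengths were seen, it was 4.15. The median of expressed genes and the list medians are not given with these lengths, so the members' place among other genes was not tested with them. The levels of 7, 8 and 2 of the 10 members moved beyond their counting interval under these lengths, in that order. FOSL1 was the highest member under all of them, and the places below it changed. With the shortest coding transcript FOS came next to FOSL1, JUN fell behind FOS, ATF3 and JUND, and JUNB at 4.55 fell behind FOSL2 at 5.25 and FOSB at 5.08. The median percentile of the members, 74.5 among genes with at least 10 reads, was 86.7 among all genes and 82.8 among genes with any read, because those sets hold more low genes. Keeping the added 0.5 left the share of reads at 0.0552%. The number of listed genes detected, 72, was 74 at 3 reads and 66 at 100 reads. Depth limits BATF3 most, with an interval from 9.39 to 14.9 reads.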
